A study of Bos taurus with 16 samples.

Results

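Lipid droplet and fatty acid genes were followed through bovine development from the mature oocyte to the blastocyst. The 10 genes were chosen by name: PLIN2 and PLIN3 of the droplet coat, FASN, SCD and ELOVL5 of fatty acid synthesis, desaturation and elongation, ACSL3 of fatty acid activation, CPT1A and CPT2 of the carnitine shuttle, and HADHA and ACADVL of mitochondrial beta-oxidation. All 10 were found among the 27393 loci measured, and 9 of them had reads. The deposited data come from single oocytes matured in vivo and single embryos developed in vivo, with 2 samples at each of 8 stages and 16 in all: MII oocytes (MII), 2-, 4-, 8- and 16-cell embryos (2C, 4C, 8C and 16C), early morulae (EM), compact morulae (CM) and blastocysts (BL). All samples are cattle oocytes and embryos with no treatment given in the labels, which do not say whether replicates came from different donors, so that p-values measure only the spread between these samples. Embryonic genome activation (EGA) in cattle embryos developed in vivo falls between the 4- and 8-cell stages, so MII, 2C and 4C (6 samples) lie before EGA and the other stages (10 samples) after it. The RNA of each sample was amplified in 2 rounds before sequencing. Levels are given as CPM, the reads on a locus per 1000000 reads of the sample. Gene lengths do not enter CPM, and levels are therefore compared between stages of 1 gene and not between genes.

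Lipid droplets are stores of triglycerides and sterol esters enclosed by a single layer of phospholipids, to which coat proteins such as the perilipins bind. Bovine oocytes are rich in such droplets, and their fatty acids can be burned in mitochondria. To enter a mitochondrion, a long-chain fatty acid is activated to an acyl-CoA, handed to carnitine by CPT1 and returned to CoA by CPT2, after which beta-oxidation shortens it step by step. Malonyl-CoA, the building block of new fatty acids, inhibits CPT1.

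Between 607672 and 3379426 reads per sample were recovered from the deposited values, and 3 reads, the smallest number taken as detectable, correspond to between 0.888 and 4.94 CPM. Such floors cover counting error only. 2 libraries stood apart from their partners. 8C replicate 2 still held oocyte transcripts, with 1535 CPM summed over a list of 10 oocyte genes against 28.5 CPM in 8C replicate 1. MII oocytes held 7793 and 10638 CPM. BMP15 of this list lies in a stretch of loci all listed at 0, described below with SCD, so its 0 says nothing of the transcript. 16C replicate 2 held trophectoderm transcripts, with 592 CPM summed over 11 trophectoderm and blastocyst genes against 166 CPM in 16C replicate 1 and 1678 and 1904 CPM in BL. Of that list, CDX2, a defining trophectoderm gene, had 1 read in all 16 samples and was listed at 0 in both BL samples. Of 13 cumulus and granulosa cell genes, STAR took more reads than any other in every sample, with 379 to 1727 CPM, and HAS2 held 68.7 to 298 CPM in the 6 samples before EGA and 0 to 18.3 CPM after it. CYP19A1 reached 24.3 CPM, LHCGR 52.8 CPM, HSD3B1 54.3 CPM in BL and FSHR 9.20 CPM, and AMH was listed at 0. Sperm genes summed to at most 9.81 CPM. For the 9 genes with reads, calls and steps that rest on 8C replicate 2 or 16C replicate 2 are given below with and without them. Those of other lipid genes are given with all samples only. In whole embryos, fewer cells of a type and less RNA per cell cannot be told apart.

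PLIN3 and FASN had most of their reads in BL, and ACSL3 had its highest CPM at 16C. CPT1A was high from 16C to CM and low at both ends of the series, and PLIN2 had reads in every sample with no stage effect past the threshold. Stages were compared in limma fits of log2(deposited value + 1), with p-values adjusted by the Benjamini-Hochberg method over all loci and a threshold of 0.05. Log2 changes below are on this scale, which understates changes of genes with few reads. Over the 8 stages, 7 of the 9 genes with reads passed this threshold for a stage effect, against a background of 66.7% of the 9670 loci tested, a share that leaves little to read from the count. The adjusted p from limma was 5.8e-05 for FASN, 2.3e-04 for PLIN3, 0.00407 for ACSL3, 0.0226 for CPT1A, 0.0235 for CPT2, 0.0262 for ELOVL5 and 0.0474 for ACADVL. PLIN2 and HADHA did not pass, with adjusted p = 0.14 and adjusted p = 0.144. HADHA passed with samples scaled by total reads (limma adjusted p = 0.0399) and without MII replicate 2 (limma adjusted p = 0.0496). The stage effects of FASN, PLIN3 and ACSL3 passed under every alternative tried, whereas those of ELOVL5, CPT1A, CPT2 and ACADVL each failed under at least 1. Without EM replicate 2 only the first 3 genes were left.

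**Figure D1:**
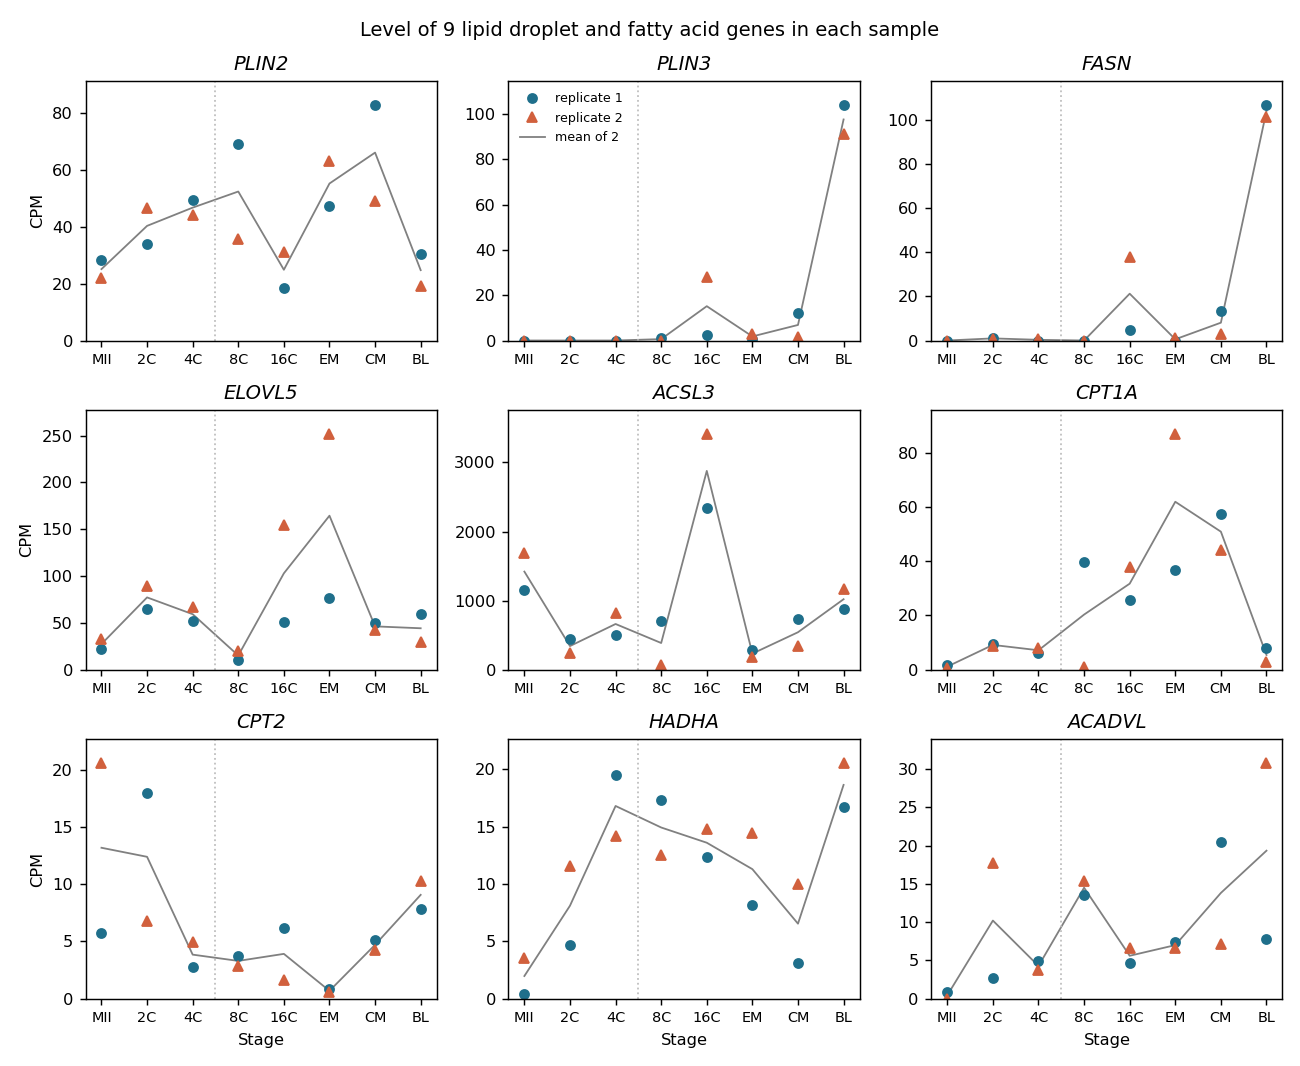
Level in CPM (vertical axis, from 0, a separate scale for each panel) of the 9 genes with reads at the 8 stages (horizontal axis). Points are single samples, the line joins stage means (n = 2), and the dotted vertical line marks EGA between 4C and 8C. PLIN3 and FASN stand near 100 CPM in BL only, ACSL3 peaks at 16C with 2340 and 3416 CPM, and CPT1A falls to 7.86 and 2.94 CPM in BL.

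PLIN2 (XLOC_066877) encodes perilipin 2, the coat protein found on droplets of most cell types and broken down when it is not bound to one. In CPM it held 28.4 and 21.9 in MII, 33.9 and 46.8 in 2C and 49.3 and 44.2 in 4C. After EGA it held 69.3 and 35.6 in 8C, 18.5 and 31.3 in 16C, 47.4 and 63.1 in EM, 83.0 and 49.3 in CM, and 30.4 and 19.1 in BL. PLIN2 thus had reads at every stage, with its highest mean in CM at 66.1 ± 23.9 CPM (SD, n = 2) and its lowest in BL at 24.8 ± 8.04 CPM. In the order of stage means (CM, EM, 8C, 4C, 2C, MII, 16C, BL), the samples of each stage overlapped those of the next except between 2C and MII. Before EGA the samples lay between 21.9 and 49.3 CPM with a median of 39.1, and after it between 18.5 and 83.0 CPM with a median of 41.5. Across EGA PLIN2 differed by -0.32 on the log2 scale (standard error, SE, 0.36; limma adjusted p = 0.439), and scaled by total reads it was 0.15, so no direction is given. Between 8C and BL the log2 change was -1.33 (SE 0.55, limma adjusted p = 0.145), short of the threshold, with both BL samples below both 8C samples. Without 8C replicate 2 that change was -1.94 and without 8C replicate 1 it was -0.71.

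PLIN3 (XLOC_063040) encodes a perilipin that is soluble in the cytosol and moves onto newly forming droplets. No read of PLIN3 was found in the 6 samples before EGA, where 3 of their 12487803 reads together would be 0.24 CPM. In CPM it held 1.24 and 0 in 8C, 2.32 and 28.0 in 16C, 0.817 and 2.77 in EM, 12.3 and 1.43 in CM, and 104 and 91.0 in BL. The BL values rest on 106 and 62 reads, and the 28.0 CPM of 16C replicate 2 on 17 reads. Both BL samples therefore lay above all 14 others, and in 16C and in CM 1 replicate stood far above the other. Pooled over replicates, BL exceeded the samples before EGA at least 411.5-fold, taking 3 reads over that group as the floor. BL exceeded CM 16.8-fold (95% counting interval 9.73 to 31.4), from 168 reads against 14.

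FASN (XLOC_027467) encodes fatty acid synthase, the cytosolic enzyme that builds palmitate from acetyl-CoA and malonyl-CoA. FASN had 0 and 0 CPM in MII, 1.33 and 0.592 in 2C, 0 and 0.615 in 4C and 0 and 0 in 8C, from 5 reads in these 8 samples. It held 4.64 and 37.8 CPM in 16C, 0 and 1.11 in EM, 13.3 and 2.86 in CM, and 107 and 101 in BL. The stage mean in BL was 104 ± 4.09 CPM, followed by 21.2 ± 23.5 CPM in 16C and 8.09 ± 7.40 CPM in CM. BL overlapped no other stage, 16C overlapped CM, and CM lay above 2C, while the order among 2C, EM, 4C, MII and 8C rests on at most 2 reads per sample. Pooled over replicates, FASN in BL exceeded the 6 samples before EGA 262-fold (95% counting interval 110 to 816) and CM 14.6-fold (8.89 to 25.7).

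Between 8C and BL, 2 of the 9 genes tested rose, FASN and PLIN3, against a background of 6.44% of loci higher, and none fell, against 3.63% of loci lower. The log2 change was 6.79 for FASN (SE 0.87, limma adjusted p = 3.1e-04) and 5.95 for PLIN3 (SE 0.96, limma adjusted p = 0.00147). Most of the reads with which both genes passed the filter on low counts were those of BL. Pooled over replicates, FASN was at least 64.5-fold higher in BL than in 8C, where 3 reads over the group were taken as the floor, and PLIN3 183-fold higher (95% counting interval 32.3 to 7257, with 1 read in 8C). edgeR and DESeq2 on the recovered reads also called both. With the 8C and BL samples alone in the fit, neither passed (limma adjusted p = 0.138 for both), and in that fit 0 of all 9670 loci passed, with 1641 at an unadjusted p under 0.05.

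Contrasts of neighbouring stages were added after the values were seen. From CM to BL, 2.92% of loci were higher, and of the 9 genes FASN and PLIN3 passed. The log2 change was 3.70 for FASN (SE 0.87, limma adjusted p = 0.023) and 4.02 for PLIN3 (SE 0.96, limma adjusted p = 0.026). Without CM replicate 1, whose FASN and PLIN3 levels lay above those of its partner, the changes were 4.54 (limma adjusted p = 0.028) and 5.17 (limma adjusted p = 0.022). From 8C to 16C, 0.548% of loci were higher, and FASN was the only one of the 9 genes to pass, with a log2 change of 4.08 (SE 0.87, limma adjusted p = 0.043). That call rested on 16C replicate 2, and without it the change was 2.91 (limma adjusted p = 0.29). It was lost without 8C replicate 2 as well (limma adjusted p = 0.1). In the 4 other steps added, none of 36 tests of the 9 genes passed in limma, and 7 had an unadjusted p under 0.05.

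The 2 samples before BL that were highest in FASN and PLIN3 also held trophectoderm transcripts, as did some samples with few or no reads of either gene. In 16C replicate 2, FASN stood at 36.3% and PLIN3 at 28.7% of its BL mean, beside KRT8 at 19.8%, KRT18 at 30.1%, GATA2 at 40.5%, GATA3 at 26.2%, PTGS2 at 27.4% and DSC2 at 24.3%. In CM replicate 1, FASN was at 12.8% and PLIN3 at 12.6% of the BL mean, with KRT8 at 5.58%, KRT18 at 13.6%, GATA2 at 22.1%, GATA3 at 7.19%, PTGS2 at 1.25% and DSC2 at 4.78%. In CM replicate 2, FASN was at 2.74% and PLIN3 at 1.46%, while KRT8, KRT18 and PTGS2 were listed at 0, GATA2 was at 0.55%, GATA3 at 0.91% and DSC2 at 0.555%. Several genes of the list were also found where FASN and PLIN3 had few or no reads. GATA2 was at 30.8% of its BL mean in 2C replicate 2 and at 13.4% and 10.4% in 4C, and GATA3 reached 7.08% in 4C, where FASN was at most 0.59% and PLIN3 at 0. KRT8 was at 2.24% and 3.75% in MII, with FASN and PLIN3 at 0, and KRT18 at 3.03% and 4.11% in EM. TFAP2C was at 54.7% and 66.0% of its BL mean in 16C replicates 1 and 2, 157% and 166% in EM and 73.7% and 63.1% in CM, whereas FASN was at 4.45% in 16C replicate 1 and at most 1.06% in EM. NANOG was listed at 0 in 16C replicate 2 and stood at 11.3% and 14.6% in CM. IFNT2, SOX2 and CDX2 had no more than 3 reads in either BL sample, too few for such a share, and IFNT2 was highest in 16C replicate 2 at 70.8 CPM. The part of these transcripts in the FASN and PLIN3 levels was not tested.

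**Figure D2:**
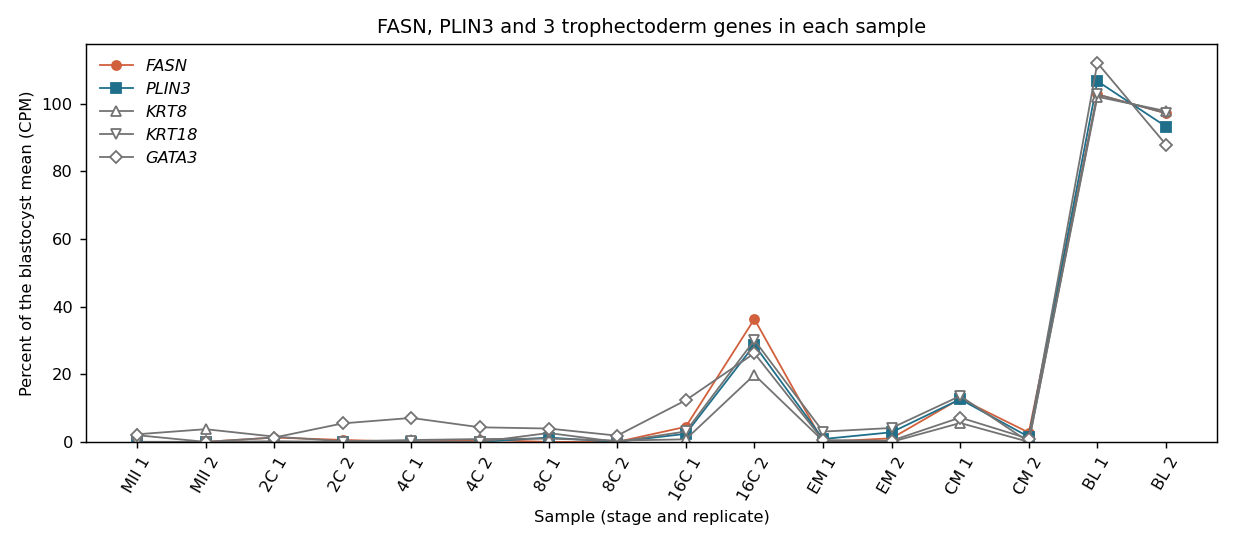
Level of FASN, PLIN3 and 3 trophectoderm genes in each of the 16 samples (horizontal axis, in order of stage). Points, 1 per sample and gene, give percent of the mean CPM of that gene in BL, on a linear scale (vertical axis). Both BL samples are highest for FASN (102.8% and 97.2%) and PLIN3 (106.7% and 93.3%), and 16C replicate 2 holds both genes together with the keratins.

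SCD (XLOC_073087) encodes stearoyl-CoA desaturase, which places a double bond in saturated fatty acids. It is listed at 0 in every sample. Its neighbours in the numbering are listed at 0 too, over a stretch of 2578 loci that holds genes that nearly all cells use, such as TBP and PSMB1, so the zero says nothing of the transcript.

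ELOVL5 (XLOC_039731) encodes an elongase of polyunsaturated fatty acids in the endoplasmic reticulum. ELOVL5 had 22.2 and 32.4 CPM in MII, 64.6 and 89.7 in 2C and 51.4 and 67.0 in 4C. It then stood at 9.90 and 20.2 in 8C, 51.0 and 155 in 16C, 76.8 and 252 in EM, 50.2 and 42.1 in CM, and 58.9 and 29.4 in BL. The 8C samples were the lowest pair of the series, below every other sample, and the EM samples had the highest mean but also the widest spread (164 ± 124 CPM). In the order of means (EM, 16C, 2C, 4C, CM, BL, MII, 8C), neighbouring stages overlapped except for 4C over CM and MII over 8C.

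From 4C to 8C, ELOVL5 was the only one of the 9 genes tested to fall, against a background of 19.1% of loci lower, and none rose, against 17.7% of loci higher. Its log2 change was -2.00 (SE 0.61, limma adjusted p = 0.019). The call was lost without 4C replicate 1 (limma adjusted p = 0.0656), without 4C replicate 2 (limma adjusted p = 0.122), without 8C replicate 1 (limma adjusted p = 0.117) and with the 2 stages alone (limma adjusted p = 0.0683), with a change between -2.19 and -1.65. Over the 6 samples before EGA against the 10 after it, the log2 change of ELOVL5 was -0.43 (SE 0.45, limma adjusted p = 0.413), and scaled by total reads it was 0.05, so no direction is given. Before EGA the samples lay between 22.2 and 89.7 CPM and after it between 9.90 and 252 CPM, so the groups overlapped at both ends.

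ACSL3 (XLOC_030728) encodes a long-chain acyl-CoA synthetase of the endoplasmic reticulum and the droplet surface, which activates fatty acids for storage. ACSL3 stood at 1157 and 1681.5 CPM in MII, 442 and 240.0 in 2C, and 507 and 814 in 4C. After EGA it held 703 and 67.3 in 8C, 2340 and 3416 in 16C, 286 and 177 in EM, 738 and 344 in CM, and 873 and 1165 in BL. In CPM both 16C samples lay above all others, and MII and BL came next with overlapping samples. From 4C down to EM, which had the lowest mean at 231 ± 77.3 CPM, neighbouring stages overlapped. The 16C mean was 2878 ± 761 CPM and the MII mean 1419 ± 371 CPM. On the deposited scale used for the fits, MII held 2410 and 4081 and 16C held 3296 and 3357, so these stages overlapped there. The log2 change was 3.53 from 8C to 16C (SE 0.87, limma adjusted p = 0.064) and -4.17 from 16C to EM (SE 0.87, limma adjusted p = 0.083). Without 8C replicate 2 the change of ACSL3 from 8C to 16C was 1.70 (limma adjusted p = 0.28), and without 16C replicate 2 it was 3.51 (limma adjusted p = 0.28). Neither step passed the threshold, although the replicates of each pair of stages did not overlap. From MII to 2C the log2 change was -2.99 (SE 0.87, limma adjusted p = 0.088), and at EGA it was -0.65 (SE 0.74, limma adjusted p = 0.444).

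The changes of ACSL3 into and out of 8C depended on which 8C sample was used. 8C replicate 2, which kept oocyte transcripts, had 70 ACSL3 reads against 568 in replicate 1. Without 8C replicate 1, the log2 change from 4C to 8C was -3.39 (limma adjusted p = 0.0045) and from 8C to BL 3.71 (limma adjusted p = 0.00383), whereas with both replicates neither passed (-1.56, adjusted p = 0.17, and 1.89, adjusted p = 0.192). Without 8C replicate 2 the changes were 0.27 and 0.06. The part of the oocyte transcripts in this difference was not tested.

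CPT1A (XLOC_049000) encodes the liver form of carnitine palmitoyltransferase 1 on the outer mitochondrial membrane, the rate-limiting step of fatty acid entry. In CPM it held 1.77 and 0.438 in MII, 9.32 and 8.88 in 2C and 6.25 and 7.99 in 4C. After EGA it held 39.6 and 0.962 in 8C, 25.5 and 37.8 in 16C, 36.8 and 86.9 in EM, 57.4 and 44.3 in CM, and 7.86 and 2.94 in BL. All 6 samples of 16C, EM and CM, and 8C replicate 1, lay above every sample before EGA, while 8C replicate 2 and both BL samples did not. The means were 61.9 ± 35.5 CPM in EM, 50.8 ± 9.29 CPM in CM, 31.7 ± 8.73 CPM in 16C and 20.3 ± 27.3 CPM in 8C, and then 9.10 ± 0.312 CPM in 2C, 7.12 ± 1.23 CPM in 4C, 5.40 ± 3.48 CPM in BL and 1.11 ± 0.943 CPM in MII. CM did not overlap 16C, 2C did not overlap 4C, and BL did not overlap MII, whereas the other neighbours in this order overlapped.

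CPT2 (XLOC_051082) encodes the partner of CPT1 on the inner mitochondrial membrane, which returns the fatty acid to CoA. CPT2 had 5.76 and 20.6 CPM in MII, 18.0 and 6.81 in 2C and 2.78 and 4.92 in 4C. After EGA it held 3.71 and 2.89 in 8C, 6.18 and 1.65 in 16C, 0.817 and 0.554 in EM, 5.13 and 4.28 in CM, and 7.86 and 10.3 in BL. The highest CPT2 samples were thus 1 of MII and 1 of 2C, and the lowest were both EM samples, with 1 read each. Stage means ran from 13.2 ± 10.5 CPM in MII through 12.4 ± 7.89 CPM in 2C and 9.07 ± 1.71 CPM in BL down to 0.685 ± 0.186 CPM in EM, and BL lay above CM and 8C above EM without overlap. The CPT2 values rest on at most 47 reads in a sample. The stage effect of CPT2 was lost without either EM replicate (limma adjusted p = 0.0763 and 0.0955), without MII replicate 2 (limma adjusted p = 0.074) and with samples scaled by total reads (limma adjusted p = 0.0533). CPT2 had too few reads for the EGA fit, and its mean CPM was 9.81 ± 7.51 before EGA and 4.33 ± 3.13 after it (two-sided exact permutation test, p = 0.0516, raw and for this gene alone). The same exact permutation test gave p = 0.126 for PLIN3 and p = 0.144 for FASN, the other 2 genes outside that fit. In the model with a term for each of the 8 stages, which tests all 9 genes for the same difference, all 3 passed, beside 3665 loci higher and 3103 lower of 9670. There CPT2 differed by -1.40 on the log2 scale (SE 0.45, limma adjusted p = 0.0114). PLIN3 (2.96) and FASN (2.38) were kept in that model by their reads in samples after EGA, most of them BL, so nothing is read from those calls. From 4C to 8C, PLIN3 changed by 0.74 (SE 0.96, limma adjusted p = 0.57) and FASN by -0.43 (SE 0.87, limma adjusted p = 0.729).

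The 2 mitochondrial beta-oxidation genes were lowest in MII. HADHA (XLOC_007327), the alpha subunit of the trifunctional protein that carries out the later steps of the cycle for long chains, held 0.443 and 3.51 CPM in MII, 4.66 and 11.5 in 2C and 19.4 and 14.1 in 4C. After EGA it held 17.3 and 12.5 CPM in 8C, 12.4 and 14.8 in 16C, 8.17 and 14.4 in EM, 3.08 and 9.99 in CM, and 16.7 and 20.5 in BL. HADHA had at most 39 reads in a sample, and neighbouring stages in the order of its means (BL, 4C, 8C, 16C, EM, 2C, CM, MII) all overlapped.

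ACADVL (XLOC_027156) encodes the very-long-chain acyl-CoA dehydrogenase, which carries out the first step of the cycle. In CPM it held 0.886 and 0 in MII, 2.66 and 17.8 in 2C, 4.86 and 3.69 in 4C, 13.6 and 15.4 in 8C, 4.64 and 6.58 in 16C, 7.35 and 6.64 in EM, 20.5 and 7.14 in CM, and 7.86 and 30.8 in BL. The 2 MII samples together had 2 reads. Among stages after EGA the highest mean was that of BL at 19.3 ± 16.2 CPM. In the order of its means (BL, 8C, CM, 2C, EM, 16C, 4C, MII), neighbouring stages overlapped except for EM over 16C and 4C over MII.

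Of the 6 genes with enough reads for the comparison of the 6 samples before EGA with the 10 after it, CPT1A and ACADVL rose, against a background of 36.9% of the 6910 loci tested higher, and none fell, against 29.9% lower. CPT1A had between 0.438 and 9.32 CPM before EGA and between 0.962 and 86.9 CPM after it, with medians of 7.12 and 37.3. Its log2 change was 1.70 (SE 0.72, limma adjusted p = 0.0413). ACADVL had between 0 and 17.8 CPM before EGA and between 4.64 and 30.8 CPM after it, with medians of 3.18 and 7.61. Its log2 change was 1.36 (SE 0.57, limma adjusted p = 0.0413). Both groups overlapped for both genes. The CPT1A call was also made by edgeR (adjusted p = 0.0127) and DESeq2 (adjusted p = 0.0012), but was lost with TMM factors (limma adjusted p = 0.0501), with a pseudocount of 0.5 (limma adjusted p = 0.0512), with no filter (limma adjusted p = 0.0647) and when either sample of MII, 16C, EM or CM, 4C replicate 1 or 8C replicate 1 was left out (change between 1.34 and 2.09 over all samples left out in turn). The ACADVL call was made by neither edgeR (adjusted p = 0.297) nor DESeq2 (adjusted p = 0.151) and was lost with a pseudocount of 5 (limma adjusted p = 0.0613), with no filter (limma adjusted p = 0.0681) and when either sample of MII or 8C, 2C replicate 1, 4C replicate 2, CM replicate 1 or BL replicate 2 was left out (change between 0.91 and 1.81). HADHA changed by 0.50 on the log2 scale (SE 0.53, limma adjusted p = 0.411). The median log2 change of all loci tested was 0.23, and 0.67 when samples were scaled by total reads, so these changes are read against that shift.

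For CPT1A, the 8C samples also decided the steps around EGA. With both, the log2 change was 0.11 from 4C to 8C (limma adjusted p = 0.955) and -0.86 from 8C to BL (limma adjusted p = 0.674). Without 8C replicate 2 it was 2.50 (limma adjusted p = 0.0217) and -3.25 (limma adjusted p = 0.0254). Without 8C replicate 1 it was -2.27 and 1.52. From CM to BL, CPT1A changed by -3.31 (SE 1.09, limma adjusted p = 0.1), and without 8C replicate 2 the adjusted p was 0.0066.

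Before EGA, from MII to 4C, none of the 9 genes passed in limma, against a background of 6.48% of loci higher and 2.19% lower (627 and 212 loci, or 1054 and 56 when scaled by total reads), and edgeR and DESeq2 called none of them. 4 genes had an unadjusted p under 0.05. These were HADHA, with a log2 change of 2.43 (SE 0.84, limma adjusted p = 0.0833), ACADVL with 1.97 (0.92, adjusted p = 0.193), CPT2 with -2.12 (0.87, adjusted p = 0.136) and ACSL3 with -1.88 (0.87, adjusted p = 0.186). With samples scaled by total reads, HADHA passed (2.94, limma adjusted p = 0.0294). ACSL3 passed without 8C replicate 1 (limma adjusted p = 0.0475) and without 8C replicate 2 (limma adjusted p = 0.0463), with the same change of -1.88. The comparisons of 4C with MII, 8C with 4C and BL with 8C share samples, so their values are not independent of each other.

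**Figure D3:**
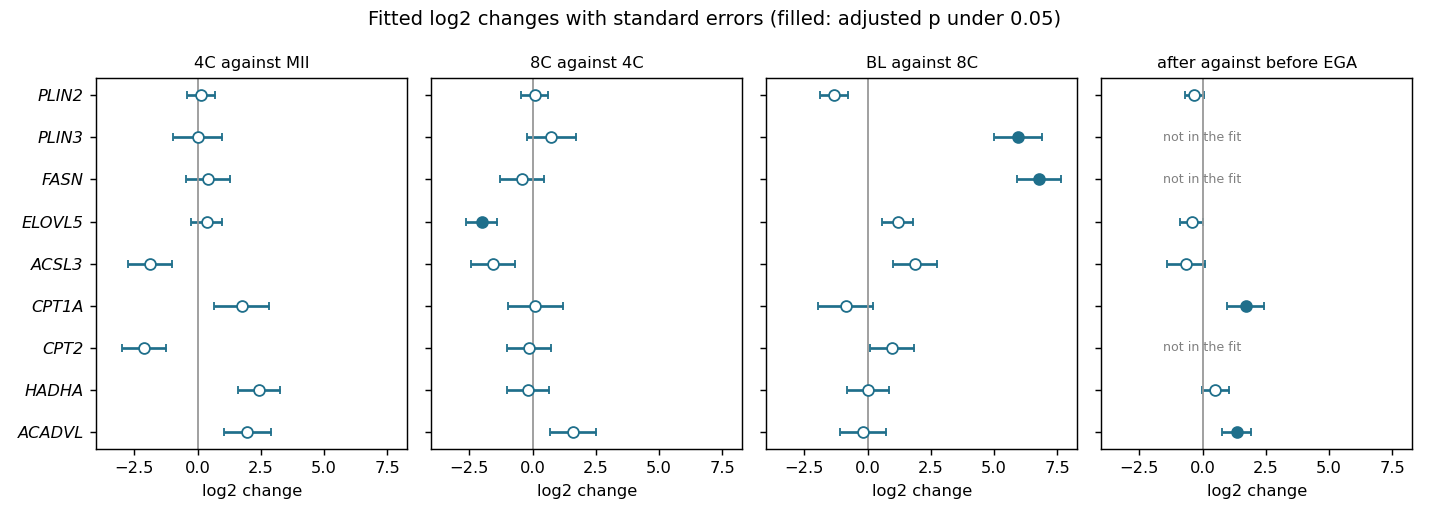
Fitted log2 changes (horizontal axis, log2 of deposited value + 1) of each gene (vertical axis) in 4 comparisons, 1 panel each, with standard errors as bars. Filled points had an adjusted p under 0.05 in limma: CPT1A (1.70) and ACADVL (1.36) after against before EGA, ELOVL5 (-2.00) in 8C against 4C, and FASN (6.79) and PLIN3 (5.95) in BL against 8C.

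Across the 16 samples, PLIN3 and FASN had the most similar profiles of any 2 of the 9 genes (Pearson r = 0.956 on the log2 scale), with both BL samples and 16C replicate 2 as the highest samples of both genes. PLIN2 ran the other way, with r = -0.593 with FASN and -0.513 with PLIN3, and the shuttle genes CPT1A and CPT2 had r = -0.567. All other pairs lay between -0.424 and 0.526. These values describe samples that share stages, and no test was made. Among 9091 named loci, the profiles most like each gene were sought as the 2 highest Pearson r. They were PLIN3 (0.956) and MID1IP1 (0.941), an activator of acetyl-CoA carboxylase, for FASN, and FAM115C (0.964) and PTGR1 (0.96) for PLIN3. For ACSL3 they were NASP (0.858) and ETFA (0.835), for ELOVL5 KIF27 (0.856) and IER3IP1 (0.854), and for PLIN2 SEH1L (0.739) and HEXIM2 (0.707). For CPT1A they were KRT5 (0.891) and INA (0.867), for CPT2 TXNDC11 (0.82) and TIMM21 (0.814), for HADHA MYO1E (0.875), and for ACADVL UBXN6 (0.87) and DNAJC30 (0.87).

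The other genes of these pathways were taken from 10 lists of 123 genes, of which 118 were found, 115 by name and 3 by synonym. PNPLA2, PNPLA3 and CPT1B lie in the stretch of loci listed at 0 that holds SCD. Before against after EGA, 17 of the 44 tested rose (38.6%, against 36.9% of all loci) and 14 fell (31.8%, against 29.9%), with a median log2 change of -0.11 against 0.23 over all loci. Scaled by total reads, 19 rose and 10 fell, beside 2871 loci higher and 1593 lower of the 6910. The place of the median turned with the genes tested, at 0.40 against 0.23 over all loci for the 68 genes in the 8-stage model (27 higher and 20 lower) and 0.13 against 0.09 for the 107 with no filter (20 higher and 22 lower). From 8C to BL, 10 of 68 rose (14.7%, against 6.44% of all loci) and 1 fell (1.47%, against 3.63%), with a median of 1.14 against 0.13. On the recovered reads, edgeR called 1 of these genes higher in BL, beside 141 of all 9670 loci, and DESeq2 4, beside 286 loci.

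The counts of single lists at EGA that follow stand against the same 36.9% of loci higher and 29.9% lower. Many genes named below passed the filter on low counts through the period in which they were high. Among them are HSD17B11, AGPAT5, MOGAT1, ME1, ELOVL4, ELOVL6 and ETFB, so their calls are read only as a difference in level. In the droplet coat list, PLIN4 and PLIN5 were listed at 0 and PLIN1 had no more than 7.42 CPM in any sample. HSD17B11, a dehydrogenase that sits on droplets, rose at EGA from 1.22 ± 1.55 to 72.9 ± 70.4 CPM (log2 change 4.52, limma adjusted p = 2.8e-06) and did not overlap between the periods. RAB18, a droplet-bound GTPase, rose by 1.11 (limma adjusted p = 0.0357). In triglyceride synthesis, 1 of 5 genes rose and 3 fell. AGPAT5, an acyltransferase of phosphatidic acid synthesis, rose by 4.59 (limma adjusted p = 2.0e-07), and MOGAT1, which makes diacylglycerol, fell from 61.2 ± 22.8 to 4.85 ± 5.43 CPM (log2 change -4.38, limma adjusted p = 1.1e-06). AGPAT9, which begins the pathway at glycerol-3-phosphate, changed by -2.11 (limma adjusted p = 0.0124) and rose from 8C to BL by 4.07 (limma adjusted p = 0.0249), to 66.8 and 83.7 CPM against 19.7 to 80.5 CPM before EGA. Of the 7 genes of the lipolysis list, 2 could be tested at EGA and both fell, LIPA, the lysosomal acid lipase, by a log2 change of -2.04 and DDHD2, a triglyceride hydrolase, of -1.92 (limma adjusted p = 0.00153 and 0.00101). MGLL, the monoglyceride lipase, had reads in the 2 BL samples alone (12.8 and 24.95 CPM), through which it passed the filter on low counts, so its BL call is not used.

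Around FASN, ME1, the malic enzyme that supplies NADPH, fell at EGA from 29.4 ± 24.4 to 0.147 ± 0.464 CPM (log2 change -5.04, limma adjusted p = 1.1e-09), and it was the only one of the 2 genes tested to pass. Between 8C and BL, MID1IP1 was the only one of 5 genes of cytosolic synthesis to rise, by 3.29 (limma adjusted p = 0.0284), on 8 and 6 reads in BL and 0 in 8C. Most of the reads with which it passed the filter were those of BL and of 16C replicate 2 (11 reads), so the call is not read further. ACLY, the source of cytosolic acetyl-CoA, held 13.5 to 34.6 CPM in 8C and 145 to 154 CPM in BL, with a log2 change of 2.42 that did not pass (limma adjusted p = 0.0619). ACACA, which makes malonyl-CoA, had no more than 13.0 CPM in any sample and fell from 4C to 8C by a log2 change of -3.00 (limma adjusted p = 0.0187). ACLY and ACACA were named after their values were seen.

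Of the elongases and desaturases, 2 of 7 rose and 1 fell. Beside ELOVL5, which did not pass at EGA, ELOVL6, the elongase of saturated chains, went from 4.53 ± 4.69 to 2334 ± 1914 CPM with no overlap (log2 change 8.26, limma adjusted p = 3.0e-10), and ELOVL4, the elongase of very long chains, from 95.1 ± 22.1 to 4.19 ± 5.49 CPM (-5.47, limma adjusted p = 1.9e-07). FADS1, the delta-5 desaturase, rose by 1.91 (limma adjusted p = 0.0266). Among uptake and activation genes, 5 of 7 rose and 2 fell. Beside ACSL3, which did not pass, its relatives ACSL6 (4.59, limma adjusted p = 8.8e-06) and ACSL1 (4.05, limma adjusted p = 2.1e-07) rose, while the fatty acid binding protein FABP5 (-3.29, limma adjusted p = 9.5e-05) and ACBD3 (-1.05, limma adjusted p = 0.013) fell.

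In the oxidation lists, 5 of 9 mitochondrial genes rose and 1 fell. ETFB, a subunit of the electron acceptor of acyl-CoA dehydrogenases, rose from 1.30 ± 1.12 to 33.5 ± 14.3 CPM (log2 change 3.93, limma adjusted p = 1.3e-07) and HSD17B10, a hydroxyacyl-CoA dehydrogenase, by 2.23 (limma adjusted p = 0.00109). HADH, the dehydrogenase for shorter chains, went from 56.8 ± 33.6 to 14.8 ± 6.24 CPM (-2.28, limma adjusted p = 4.1e-05). HADHB, the beta subunit that pairs with HADHA and was named for that reason after its values were seen, rose from 3.29 ± 2.66 to 16.6 ± 8.92 CPM without overlap (1.89, limma adjusted p = 7.1e-04). SCP2, 1 of 3 peroxisomal genes tested, rose by 2.66 (limma adjusted p = 4.6e-04). The carnitine shuttle list had 1 gene in this fit, SLC25A20, the carnitine carrier, at 0.17 (limma adjusted p = 0.752). Of the lipid transcription factors and sensors, SREBF1, an activator of lipid synthesis genes, rose by 2.47 (limma adjusted p = 0.00566) and 4 fell, among them PPARGC1A, a coactivator of mitochondrial genes (-5.04, limma adjusted p = 2.0e-06), and INSIG1, which holds SREBP proteins in the endoplasmic reticulum (-4.80, limma adjusted p = 1.2e-07).

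**Figure D4:**
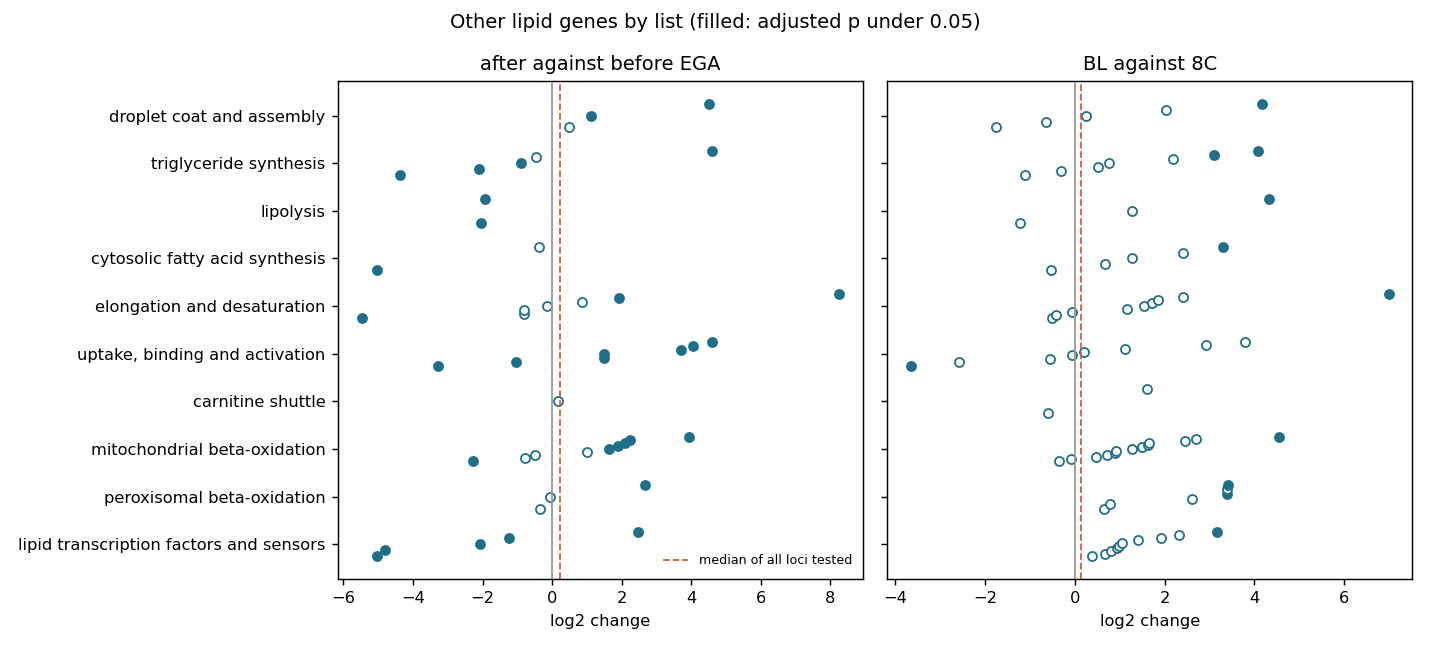
Fitted log2 changes (horizontal axis) of the other lipid genes, 1 point per gene, in the 10 lists (vertical axis), after against before EGA and for BL against 8C. Filled points had an adjusted p under 0.05 in limma, and the dashed line is the median of all loci tested (0.23 and 0.13). At EGA 17 genes rose and 14 fell, and ELOVL6 at 8.26 stands farthest to the right.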

How the data were processed

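Single bovine oocytes and embryos (16 samples, 2 at each of 8 stages) were sequenced on the SOLiD platform after amplification of their RNA. Per the labels, the authors used cutadapt, FastQC, TopHat, Cufflinks and HTSeq. Versions, genome build, strand setting and the rule for reads with several positions are not given in the sources used here. The deposited signal is the count of a locus divided by a size factor per sample, not divided by length. Dividing each value by the smallest above 0 in its sample gave a whole number for 100% of them (tolerance 0.02), which was taken as the count. Totals were 607672 to 3379426 reads, with a median of 1347534 (3 reads are 0.888 to 4.94 CPM).

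The paper's TPM was not computed, as gene lengths were not used here. Genes were matched by name, or by synonym through RefSeq's genes on ARS-UCD2.0, and where a name had several loci the one with the highest mean was taken. No sequence or coordinate is printed because the files' build is not known. Groups come from the sample titles.

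limma 3.58.1 (R 4.3.3; empirical Bayes with trend) was fitted on log2(deposited value + 1). P-values were adjusted (Benjamini-Hochberg, 0.05) over loci kept by edgeR's filterByExpr, 9670 in the model of 8 stages and 6910 before against after EGA. Contrasts of stages came from the 8-stage model. Genes outside the EGA fit were compared by exact permutation of CPM. Intervals for ratios are 95% exact intervals of pooled reads and cover counting error only. On simulated counts with 200 loci changed 4-fold, the EGA comparison recovered 90.5% among 7294 loci with 4 false calls, the stage effect 53% among 8685 loci with 7, and 8C against 4C 11% with 1. Python 3.11.15, numpy 2.4.6, scipy 1.17.1 and pandas 2.3.3 were used.

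Alternatives were scaling by total reads or TMM factors, a pseudocount of 0.5 or 5, all loci with reads, edgeR 4.0.16 and DESeq2 1.42.0 on the recovered reads, summed loci, the 8-stage model, the 2 stages alone, the replicate number as a block and each replicate left out. Contrasts of neighbouring stages, with and without single libraries, were added after the values were seen. The 10 genes and all gene lists were chosen with earlier results of these data known. The genes named follow a rule: the 10 genes, per list the 2 largest rises and 2 largest falls at EGA among those past the threshold, and the 2 named loci most correlated with each gene. Exceptions are named as such, and 1 locus correlated with HADHA is not reported here.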

Additional observations from a re-analysis of the deposited data

Results flagged for a closer look

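Among the 17 groups of 6 or 10 samples (each gene before and after EGA) examined for a single sample far from the rest, 1 was set apart, a number close to the 1 in 20 that chance gives. It was ACADVL before EGA, where 2C replicate 2 held 17.8 CPM, the next highest sample held 4.86 CPM, and the gap between them took a share of 0.726 of the whole range. The name ACSL3 has another locus (XLOC_030224), whose 1138 reads entered only the alternative in which loci of the same name were summed. It took between 2.23% of the reads of both loci in CM replicate 2 and 17.4% in 2C replicate 2. In CPM the other locus had its highest mean in BL (90.6 ± 33.7 CPM), next 16C (82.5 ± 36.9 CPM), and its lowest in EM (20.5 ± 4.70 CPM). On the deposited scale both MII samples (144 and 199) lay above all others.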

How the results depend on the processing

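For single genes, 381 of 411 values under other settings and 606 of 672 with a replicate left out kept their direction and their side of the threshold. The main counts of genes called were 7 (stage effect), 2 (EGA), 0 (4C against MII), 1 (8C against 4C) and 2 (BL against 8C). At EGA the count was 1 with TMM factors, 1 with a pseudocount of 0.5, 1 with a pseudocount of 5, 1 with no filter (where PLIN3 passed, and 7075 of 18318 loci), 1 with edgeR and 1 with DESeq2, and 5 with the 8-stage model, which tests 9 genes (PLIN3, FASN, CPT1A and ACADVL higher and CPT2 lower). From MII to 4C, 839 loci were called, and 398 with edgeR and 176 with the 2 stages alone, and 1 of the genes passed with total reads. From 4C to 8C, 3560 loci were called, and 1297 with the 2 stages alone, where 0 of the genes passed. From 8C to BL, 974 loci were called, and 339 with edgeR and 0 with the 2 stages alone, where 0 of the genes passed. The 2 stages alone leave 4 samples in the fit. The causes of the other differences were not tested.

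With each replicate left out in turn, the genes with a stage effect numbered 3 to 7 (3 without EM replicate 2), those called at EGA 0 to 2 (0 without either MII replicate, 8C replicate 1 or CM replicate 1), from MII to 4C 0 to 1 (ACSL3 without either 8C replicate) and from 4C to 8C 0 to 2. Loci called ranged from 39 to 1196 for 4C against MII (39 without 4C replicate 2, 62 without 4C replicate 1 and 82 without MII replicate 2), from 1935 to 3844 for 8C against 4C (1935 and 2003 without a 4C replicate) and from 238 to 1600 for BL against 8C (238 without BL replicate 2, 1600 without 8C replicate 1).

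Directions turned as follows on the log2 scale. At EGA, total reads gave 0.15 for PLIN2 and 0.05 for ELOVL5. From 4C to 8C, TMM factors gave -0.01 for PLIN2 and -0.01 for CPT1A, and a pseudocount of 0.5 gave -0.01 for CPT1A. From 8C to BL, HADHA was -0.12 with TMM factors, -0.11 with edgeR and -0.01 with DESeq2, and ACADVL was 0.11 with total reads and 0.10 with DESeq2. With a replicate left out, the change from MII to 4C ran from -0.02 to 0.74 for ELOVL5. From 4C to 8C it ran from -0.53 to 0.70 for PLIN2, -3.39 to 0.27 for ACSL3, -2.27 to 2.50 for CPT1A, -0.49 to 0.19 for CPT2 and -0.53 to 0.19 for HADHA. From 8C to BL it ran from -3.25 to 1.52 for CPT1A, -0.35 to 0.37 for HADHA and -1.14 to 0.77 for ACADVL.

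Samples with the same replicate number showed little in common, which cannot tell whether they shared a donor. Over 28 pairs of stages, their deviations correlated between -0.257 and 0.134 with a median of 0.00397. With the replicate block, 6381 loci and 6 of the genes had a stage effect, ACADVL being the one lost, and 2, 0, 1 and 2 genes were called at EGA, from MII to 4C, from 4C to 8C and from 8C to BL, so no other call of these genes changed.

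Depth limits CPT2, HADHA and ACADVL, with at most 47, 39 and 60 reads in a sample, and FASN and PLIN3 before BL, where differences among stages were mostly not detectable.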
